A study of Mus musculus with 4 samples.

Results

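Collagens, laminins, integrins and a few proteins named after integrins were followed in laser-captured intestinal crypts of mice. The members were all genes on the array whose symbol begins with Col and a digit, with Lama, Lamb or Lamc and a digit, or with Itga or Itgb, taken from probe sets annotated with exactly 1 gene. The rule found 166 probe sets for 81 genes, of 18193 genes with such a probe set, and each gene was represented by the brightest of its probe sets on average over the 4 arrays. They comprised 42 collagen genes, 10 laminin genes, 24 integrin genes and 5 genes that carry an integrin in their name without encoding a classical integrin subunit. The mutant group was 2 samples of crypts that lost beta-catenin through tamoxifen-induced deletion, taken 2 days after induction, and the control group was 2 samples of crypts from control mice labelled for the same day. The labels give neither strain, age, the alleles nor the promoter that drove recombination, and are silent on whether the controls received tamoxifen and on whether each sample is a different mouse. The p-values thus reflect the scatter of these arrays alone, and that scatter may be technical. The RNA of all samples went through 2 rounds of amplification.

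Epithelial cells rest on a basement membrane, a sheet of laminin and type IV collagen networks. Integrins are paired alpha and beta receptors that bind this sheet from the cell side, and in hemidesmosomes the pair of Itga6 and Itgb4 products links laminin to the keratin skeleton through plectin and dystonin. The crypt epithelium makes part of its own laminin, whereas the fibrillar collagens and much of the type IV collagen of the gut are made by the underlying mesenchyme, and a further set of integrins is typical of leukocytes and platelets. Beta-catenin serves both Wnt signalling and cadherin junctions, and is not a component of hemidesmosomes. On this basis 10 measured members were grouped as epithelial, 24 as stromal, 9 as leukocyte and platelet, 8 as cartilage, 9 as shared between epithelium and stroma, and 21 stayed outside these classes.

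All levels below are log2(intensity + 5) after quantile normalization, and differences are mutant minus control on that scale, which understates the change of dim genes. Signals of different probe sets are not comparable as transcript amounts, so each gene is compared with itself across arrays. An exception, named where it is used, sets class medians against each other within an array. Array quality differed. Before scaling, the trimmed mean intensity was 169 and 111 in mutants 1 and 2, against 130 and 130 in controls 1 and 2. Mutant 1 also carried pancreatic transcripts, with a mean level of 12.18 over 10 pancreatic marker genes, against 4.35 in mutant 2 and 4.54 and 4.42 in the controls. All 10 measured epithelial marker genes, among them Epcam and Krt8, reached the signal required for testing, and their mean level lay between 11.36 and 11.43 on every array. Ctnnb1, the deleted gene, read 12.02 and 11.85 in mutants, against 12.43 and 12.56 in controls by its brightest probe set (difference -0.56, SE 0.22, limma adjusted p = 0.785), and another probe set differed by 0.38 (SE 0.50). The deleted exons are not named in the labels, so these probe sets do not check the genotype.

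No member passed the test. A mean level of at least 4.79 over the arrays was required for testing, which 48 of the 81 members reached, and 0 of them had a limma adjusted p below 0.05, where 0.0% of the 22519 tested probe sets did. At an unadjusted p below 0.05 there were 2 members, Lamb3 and Itgb3bp, which is 4.17% of those tested, against 6.28% of all tested probe sets. Over all 81 members the median difference was 0.10, with 54 higher and 27 lower, beside a median of 0.0013 and 50.1% higher over all 45037 probe sets. These directions rest on the brightest probe set of each gene. Of the members' 17 other tested probe sets, 8 had the opposite sign to the brightest. Both mutant arrays exceeded both control arrays for 16 members (19.8%), where 16.7% of all probe sets did, and both were below for 6 (7.41%), where 17.6% did. With a 2-fold difference also required, 3 members were higher and 3 lower, 3.70% in each direction, against 3.83% and 4.09% of all probe sets. The members' share with groups apart was near that of the whole table in the higher direction and below it in the lower one. Mutant 1, the array with pancreatic transcripts, gave the highest value of 21 of the 48 tested members (43.8%) and of 21.9% of tested probe sets, and its part in the members' differences was not tested beyond the values given without it.

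Of the laminins, Lamb3 differed most among those tested. Lamb3 encodes the beta chain that is particular to the laminin of epithelial anchorage sites. It read 6.76 and 6.90 in mutants, against 5.17 and 6.04 in controls (deposited intensities of 124 and 89.8 in mutants, against 39.5 and 57.5 in controls). Both mutant values lay above both controls, and the controls differed from each other by more than the mutants did. The difference was 1.22 (SE 0.42, 2.34-fold, limma adjusted p = 0.768), and stood at 1.30 without mutant 1, 1.66 without control 2 and 0.79 without control 1. The alpha chain gene of the same laminin, Lama3, was too dim for the test, at 7.03 and 2.56 in mutants, against 4.50 and 4.45 in controls. Its mutant values straddle the controls, and its difference of 0.32 turned to -1.91 without mutant 1 and to 2.56 without mutant 2. Lama5, the alpha chain of the main laminins beneath mature gut epithelium, read 5.28 and 5.34 in mutants, against 5.03 and 4.19 in controls (difference 0.70, SE 0.48), while its other tested probe set stood at 5.81 and 2.84 in mutants, against 5.79 and 5.21 in controls (difference -1.18, SE 0.86). These Lama5 probe sets therefore disagree in sign.

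Over the family, 6 of the 10 laminin genes were higher and 4 lower, with a median of 0.24. The 5 tested ones were all higher by their brightest probe set, none past the test, and the 4 lower ones fell below the mean level required. That mean is over all 4 arrays, so low values in either group count equally towards falling below it. Mutant and control means were 3.94 and 5.14 for Lamc1, and 3.85 and 4.98 for Lamc3. Lama5 passed with 5.31 and 4.61. Over the whole table, 49.8% of tested probe sets were higher, beside 50.1% of all probe sets. The split of the 10 laminins by direction and signal was not tested. Lamb1, the beta chain shared by many basement membranes, read 8.56 and 7.62 in mutants, against 7.72 and 8.15 in controls (difference 0.16, SE 0.42), and its other tested probe set differed by -0.51 (SE 0.40) with both mutants below both controls. Lama2 and Lama4, alpha chains made mainly by muscle, mesenchyme and vessels, differed by 0.41 (SE 0.47) and 0.76 (SE 0.64). Lama4 read 5.98 and 5.64 in mutants, against 4.05 and 6.06 in controls, so that 1 control array set its difference, which was -0.25 without control 1. For Lama2 the values were 5.66 and 6.66 in mutants, against 5.42 and 6.08 in controls, and the groups overlapped. Lamc1, the commonest gamma chain, lay below the signal required for testing, at 5.08 and 2.80 in mutants, against 4.91 and 5.36 in controls, where mutant 2 alone was low. Lama1, Lamb2 and Lamc3 were likewise below that signal on average over the 4 arrays.

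Among epithelial integrins, the hemidesmosome pair had differences of opposite sign, and neither passed the test. Itgb4, the hemidesmosome beta subunit, read 6.36 and 6.30 in mutants, against 5.77 and 5.77 in controls, with both groups tight and apart. Its difference was 0.56 (SE 0.36, 1.47-fold, limma adjusted p = 0.831) and lay between 0.53 and 0.59 with any 1 array left out. Its partner Itga6, a laminin receptor subunit abundant in crypts, read 10.35 and 10.27 in mutants, against 10.65 and 10.35 in controls (difference -0.19, SE 0.29). A further probe set of Itga6 read 9.90 and 9.62 in mutants, against 10.39 and 10.10 in controls (difference -0.49, SE 0.31), with both mutants below both controls, whereas the brightest probe set overlapped between groups. Itga3, the alpha subunit of another laminin receptor, read 8.40 and 7.51 in mutants, against 7.19 and 7.69 in controls. The high value was that of mutant 1, and the Itga3 difference of 0.52 (SE 0.42) was 0.07 without that array.

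Other epithelial members were dim or differed by less than their standard error. Itga2, a collagen receptor subunit, read 4.49 and 5.16 in mutants, against 4.81 and 4.79 in controls (difference 0.02, SE 0.48). Itgb6, which activates latent TGF-beta at epithelial surfaces, was below the tested range at 4.61 and 4.55 in mutants, against 3.59 and 4.29 in controls. Col7a1, the collagen of anchoring fibrils, read 5.88 and 5.20 in mutants, against 5.85 and 5.71 in controls (difference -0.24, SE 0.42). Col17a1, the transmembrane collagen of skin-type hemidesmosomes, was near the bottom of the scale on every array, at 2.91 and 2.60 in mutants, against 3.27 and 2.68 in controls. None of them had both mutants apart from both controls except Itgb6.

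**Figure D1:**
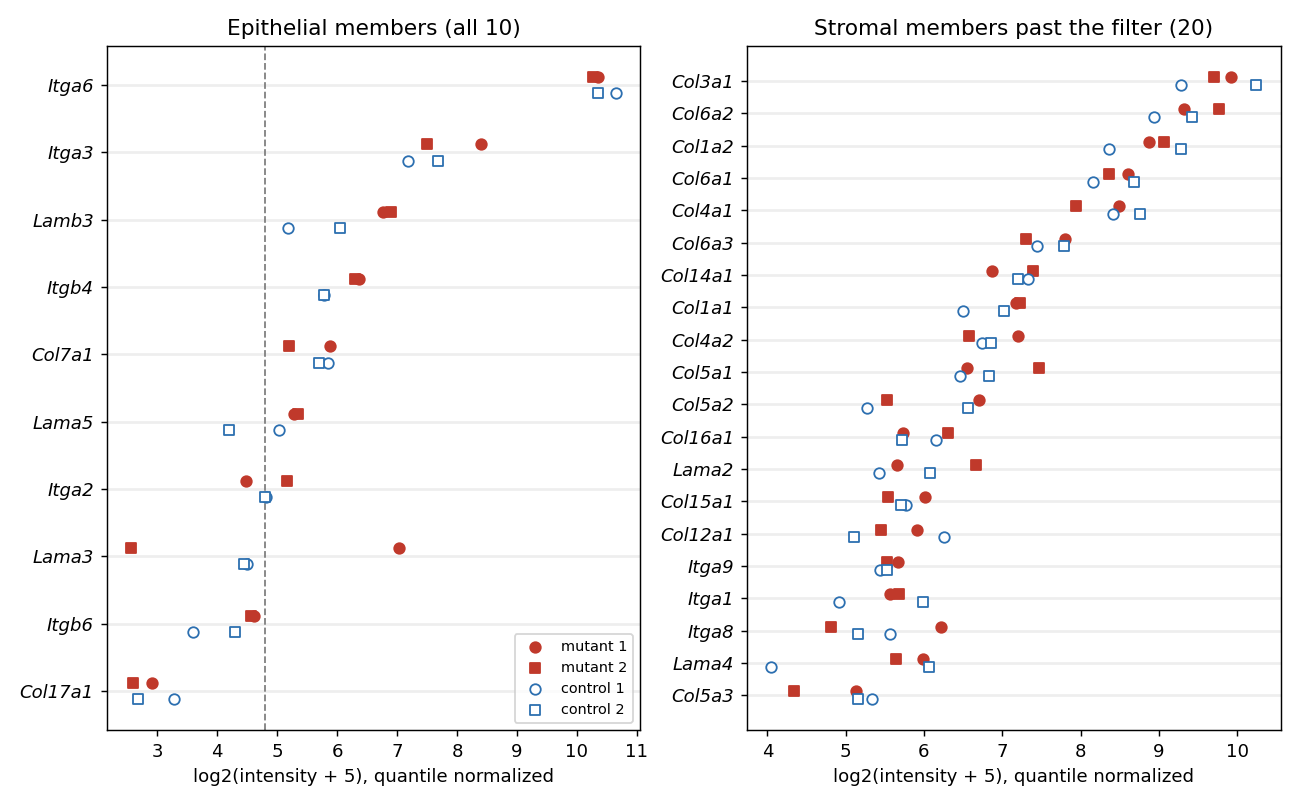
Log2(intensity + 5) of the 10 epithelial members (left) and the 20 stromal members past the signal filter (right) on each array; each symbol is 1 array, and the dashed line is the mean level of 4.79 required for testing. Lamb3 and Itgb4 show both mutant arrays above both controls, Lama3 has mutants on either side of the controls, and the stromal collagens Col3a1 and Col1a2 have both mutants between the controls.

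Partners of the integrins inside the cell were read from a list of 26 adhesion complex genes, of which 23 were measured. Of these, 15 were higher and 8 lower, with a median of 0.16, and 0 passed the test. Both mutants exceeded both controls for 7 and lay below them for 1, where 16.7% and 17.6% of all probe sets did. Dst, which encodes dystonin and anchors keratin at hemidesmosomes, read 8.85 and 8.29 in mutants, against 7.82 and 7.39 in controls (difference 0.97, SE 0.38, limma adjusted p = 0.785). Plec, the plectin linker to keratin, read 10.19 and 9.45 in mutants, against 8.62 and 9.26 in controls (difference 0.88, SE 0.39, limma adjusted p = 0.789). Src, the tyrosine kinase of adhesion signalling, stood at 9.67 and 9.18 in mutants, against 8.60 and 8.44 in controls (difference 0.91, SE 0.34). For Zyx, the zyxin of focal adhesions, the levels were 7.58 and 7.76 in mutants, against 7.10 and 6.73 in controls (difference 0.76, SE 0.36). All 4 had groups apart, and without mutant 1 they stood at 0.69 for Dst, 0.51 for Plec, 0.66 for Src and 0.85 for Zyx. The tetraspanin Cd151, which binds laminin-receptor integrins, differed by 0.18 (SE 0.31), and the cytoplasmic adhesion genes Ilk and Tln1 by -0.15 (SE 0.35) and 0.18 (SE 0.36).

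**Figure D2:**
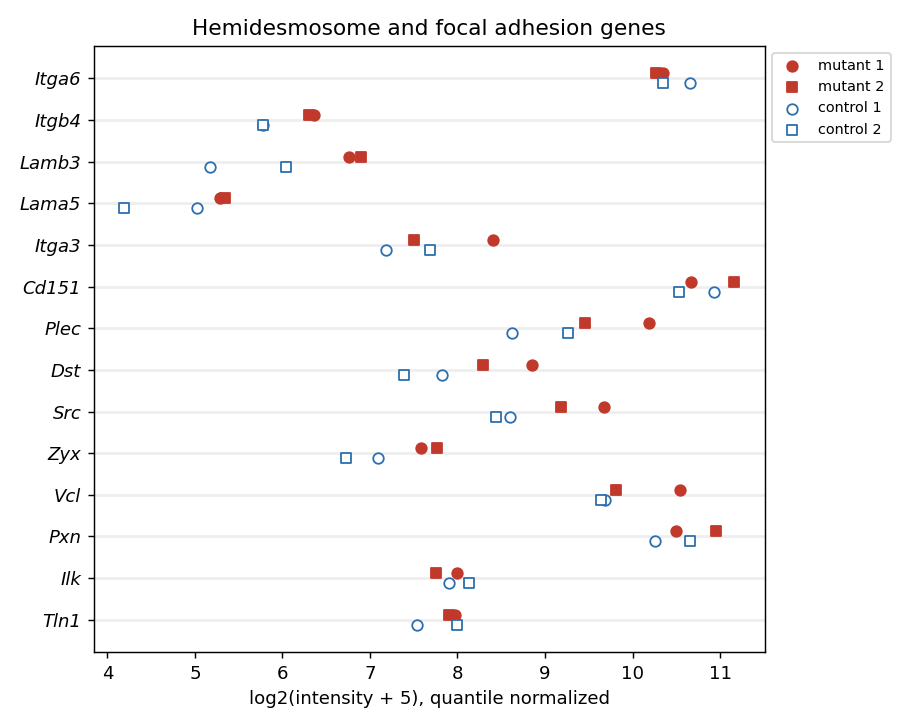
Log2(intensity + 5) on each array for epithelial laminins and integrins and for hemidesmosome and focal adhesion genes. Itgb4, Lamb3, Plec, Dst, Src and Zyx have both mutant arrays to the right of both controls, while Itga6, Ilk and Tln1 overlap between groups.

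Collagen genes of the stroma were measurable in the captured crypts, and the brightest of them overlapped between groups. The fibrillar collagen gene Col3a1 read 9.92 and 9.71 in mutants, against 9.28 and 10.25 in controls (difference 0.05, SE 0.38). Col1a2, a chain of type I collagen, read 8.88 and 9.06 in mutants, against 8.37 and 9.28 in controls (difference 0.15, SE 0.39). In both genes the mutants lay between the control arrays by the brightest probe set. A dimmer tested probe set of Col1a2 differed by 0.47 (SE 0.38), with both mutants above both controls. That of Col3a1 differed by -0.05 (SE 0.56) and overlapped between groups. Col1a1, the other chain of type I collagen, read 7.17 and 7.23 in mutants, against 6.50 and 7.03 in controls, a difference of 0.44 (SE 0.37, limma adjusted p = 0.870) with the groups apart by a narrow gap. Col6a2, a chain of the beaded type VI collagen, read 9.32 and 9.76 in mutants, against 8.93 and 9.43 in controls (difference 0.36, SE 0.35), and its partner genes Col6a1 and Col6a3 differed by 0.06 (SE 0.36) and -0.07 (SE 0.37).

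Type IV collagen forms the network of the basement membrane, and its main chains are encoded by Col4a1 and Col4a2, which lie head to head on chromosome 8. Their promoter windows of 300 bases share 78 bases (RefSeq, GRCm38.p6). Col4a1 read 8.49 and 7.94 in mutants, against 8.42 and 8.76 in controls (difference -0.38, SE 0.37), and a dimmer probe set differed by -0.70 (SE 0.41) with both mutants below both controls. Col4a2 read 7.21 and 6.57 in mutants, against 6.74 and 6.85 in controls (difference 0.09, SE 0.38). The difference between this pair was not tested.

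Fibril-associated and minor fibrillar collagens were mixed. Col5a1, a chain that helps start type I fibrils, read 6.55 and 7.47 in mutants, against 6.46 and 6.83 in controls (difference 0.36, SE 0.42). Col5a3, another type V chain, read 5.13 and 4.34 in mutants, against 5.34 and 5.16 in controls (difference -0.51, SE 0.48). By the brightest probe sets, Col5a3 was the only tested stromal member with both mutants below both controls, as a dimmer probe set of Col4a1 also had. An untested probe set of Col5a3 had the opposite sign, at 0.58. Col14a1, Col12a1, Col15a1 and Col16a1, which associate with fibrils or basement membranes, differed by -0.14 (SE 0.37), 0.0011 (SE 0.49), 0.04 (SE 0.39) and 0.09 (SE 0.41).

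Of the remaining collagens, Col27a1, a fibrillar type, read 5.99 and 6.13 in mutants, against 5.75 and 5.77 in controls (difference 0.29, SE 0.37). A dimmer tested probe set of Col27a1 read 5.49 and 6.25 in mutants, against 4.66 and 4.94 in controls. Its difference was larger, at 1.07 (SE 0.45, limma adjusted p = 0.785). Both probe sets had both mutants above both controls. Col6a4, a type VI chain gene, read 6.56 and 4.99 in mutants, against 4.61 and 5.06 in controls. Its difference of 0.93 (SE 0.57) was 0.15 without mutant 1. Over all 42 collagen genes the median difference was 0.08, with 29 higher and 13 lower, and the range was -1.27 to 1.27. Both ends of that range belonged to genes below the tested signal, Col2a1 of cartilage and Col4a3 of specialised basement membranes. None of the 8 cartilage members, which include Col2a1, Col9a1 and Col10a1, reached the tested signal.

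**Figure D3:**
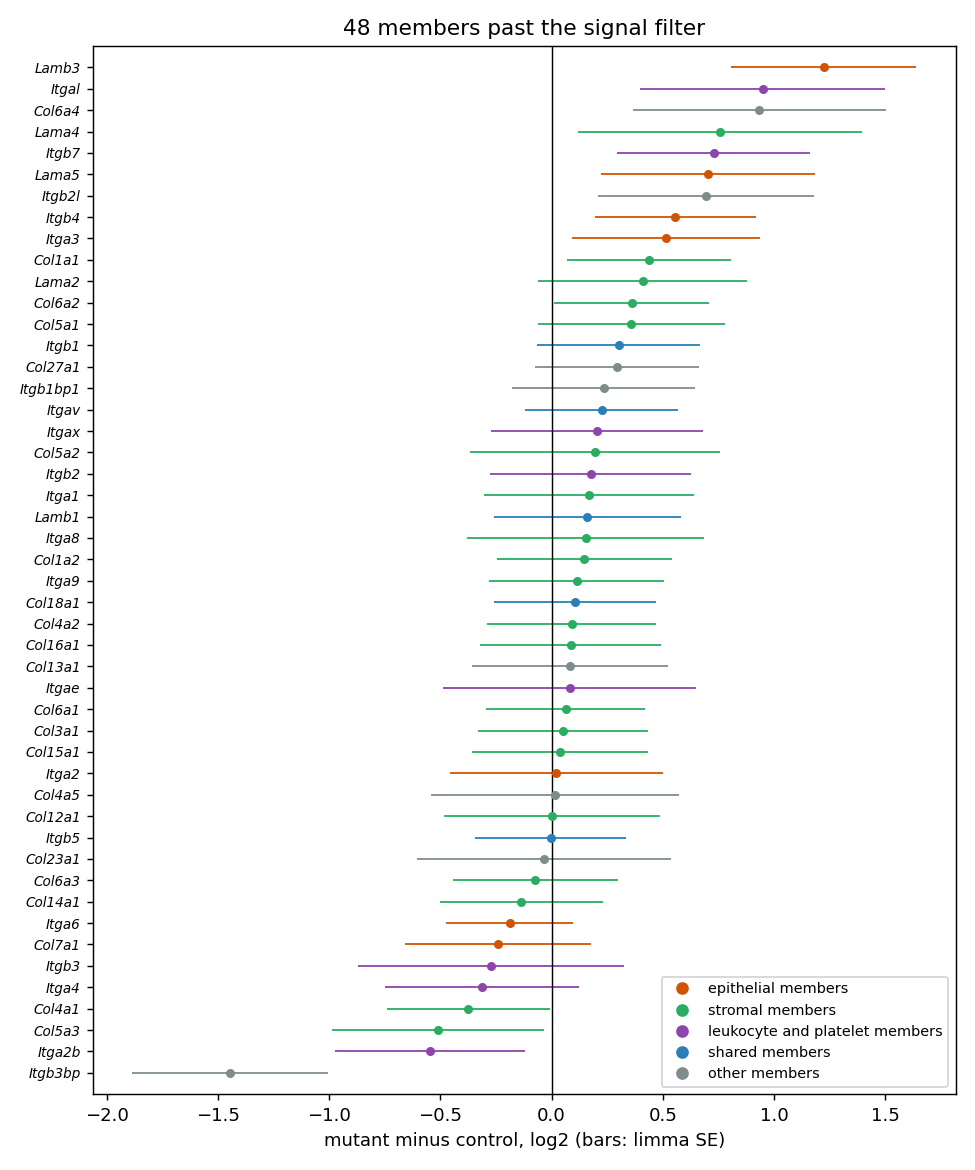
Difference between mutant and control crypts (log2, points) with its limma standard error (bars) for the 48 members past the signal filter, coloured by class. Lamb3 at 1.22 and Itgb3bp at -1.44 lie at the ends, and 36 of the 48 lie within 0.5 of 0.

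Set against each other, the epithelial class had the higher median difference, by an amount that depended on single arrays and on the choice of probe set. The median difference was 0.42 over the 10 epithelial members (7 higher, 3 lower) and 0.13 over the 24 stromal members (19 higher, 5 lower), where 50.1% of all probe sets were higher. With all probe sets of a gene averaged, the epithelial median was 0.0069 and the gap between the classes -0.054. Both mutants exceeded both controls in 4 epithelial members, namely Lamb3, Itgb4, Lama5 and the untested Itgb6, and in 3 stromal members, Col1a1 and the untested Itga5 and Col8a2. These are 40.0% and 12.5% of the classes, against 16.7% of all probe sets. Lama5 and Itgb6 each had another probe set of opposite sign, at -1.18 and -0.66, the latter untested. Itga5 had other untested probe sets of both signs. The gap between the class medians of the differences was 0.29. It was 0.46 without mutant 2, 0.23 without control 1, 0.04 without mutant 1 and -0.13 without control 2, so its size and sign rest on single arrays. The array medians of the epithelial class were 6.12 and 5.27 in mutants 1 and 2, against 5.10 and 5.25 in controls 1 and 2. Those of the stromal class were 6.12 and 5.99 in mutants, against 5.96 and 6.07 in controls. Taken within each array, the epithelial median minus the stromal one was 0.0021 and -0.72 in mutants, against -0.86 and -0.82 in controls. This measure sets different probe sets against each other, and its medians can fall on different genes from array to array. It is therefore not a change within genes. Both mutants lay above both controls by this measure, mutant 2 narrowly. The group means of this measure differed by 0.48, with a pooled SD between arrays of 0.36, and by 0.12 without mutant 1.

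Many stromal members differed between the control arrays. Control 2 exceeded control 1 for 17 of the 24 stromal members, and for 5 of these 17 both mutants lay between the controls. Control 2 was also the higher for 7 of the 8 untested cartilage members, 8 of the 9 smooth muscle genes and 6 of the 10 fibroblast genes. In other sets it was the higher for 3 of the 10 epithelial members and 4 of the 9 leukocyte and platelet members. It was also the higher for 3 of the 10 leukocyte marker genes and 14 of the 23 adhesion complex genes. The share over all probe sets was not counted, so whether these counts are particular to stromal members is not known. The mean level over 9 smooth muscle genes was 6.92 and 6.78 in mutants, against 6.11 and 6.83 in controls 1 and 2. Over 10 fibroblast genes the mean was 6.77 and 7.05 in mutants, against 6.58 and 6.63 in controls. The fibroblast receptor gene Pdgfra had the largest difference of the 10 fibroblast genes. It read 8.03 and 9.49 in mutants, against 6.53 and 7.93 in controls. The median difference over these 10 genes was 0.31, and the lowest was -0.44. In mutants, 7 of the 10 fibroblast genes and 7 of the 9 smooth muscle genes were higher. Of the 8 endothelial genes 3 were higher and 5 lower, and Pecam1, Tie1 and Emcn were below the tested signal. The part of these cells in the members' values was not tested, and in such tissue a change in the number of cells cannot be told apart from a change in RNA per cell.

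**Figure D4:**
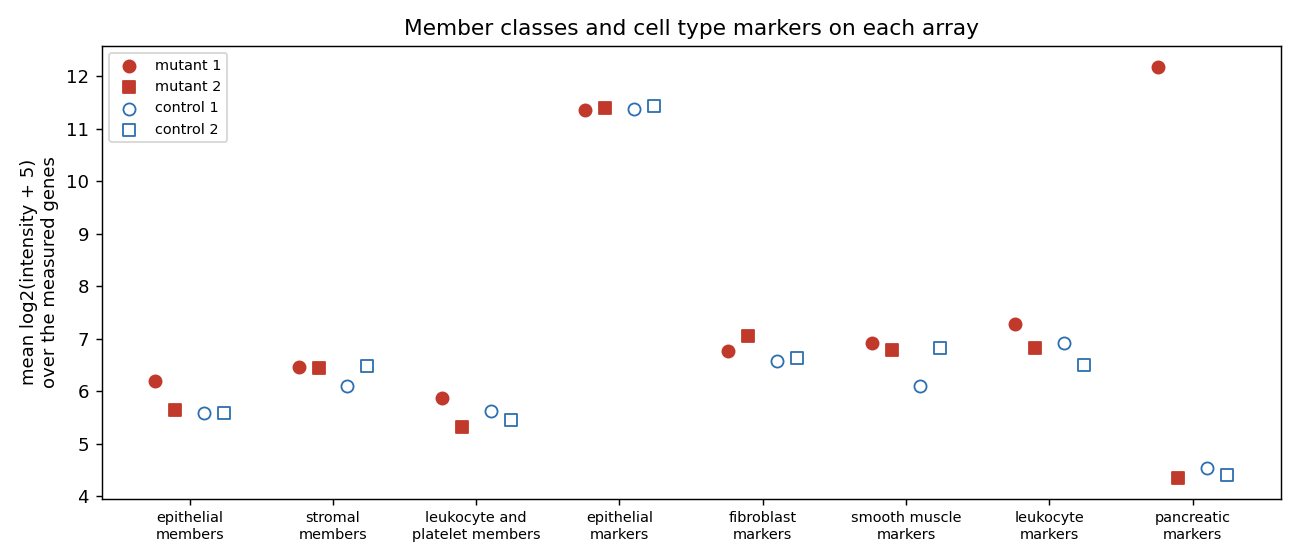
Mean log2(intensity + 5) over the measured genes of each class, on each array, for 3 classes of members and for marker lists of cell types. The pancreatic markers stand at 12.18 on mutant 1 and between 4.35 and 4.54 on the other arrays, the epithelial markers lie between 11.36 and 11.43, and the stromal members are lowest on control 1.

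Among integrins of leukocytes and platelets, some differed more within a group than between groups. Itgae, the alpha subunit that holds intraepithelial lymphocytes to E-cadherin, read 7.77 and 6.59 in mutants, against 7.82 and 6.38 in controls (difference 0.08, SE 0.57). Itgb2, the beta subunit common to leukocyte integrins, read 7.04 and 6.40 in mutants, against 7.04 and 6.05 in controls (difference 0.18, SE 0.45). In both genes, which were picked after their values were seen, the array numbered 1 was the higher in each group. This held for 4 of the 9 members of the class and for 5 of the 10 leukocyte marker genes. Array 2 was the higher in each group for 0 and 1 of them. For arrays 1 and 2 the counts were 5 and 1 of the 10 epithelial members and 4 and 0 of the 9 shared members. Among the 24 stromal members they were 4 and 8. The share over all probe sets was not counted, so whether the pattern is particular to leukocyte genes is not known. Of the 10 leukocyte marker genes, 7 were higher and 3 lower in mutants, with a median of 0.41. The part of leukocytes in the members' values was not tested. Itgal, the alpha subunit of the lymphocyte receptor for ICAM ligands, read 6.10 and 5.86 in mutants, against 4.25 and 5.81 in controls. The difference of 0.95 (SE 0.55, limma adjusted p = 0.817) was 0.17 without control 1. Itgb7, which guides lymphocytes to the gut and pairs with Itgae and Itga4 products, read 6.39 and 6.01 in mutants, against 5.05 and 5.89 in controls (difference 0.73, SE 0.43), and stood at 0.31 without control 1. Itga2b, the platelet fibrinogen receptor subunit, read 5.17 and 4.75 in mutants, against 5.43 and 5.58 in controls (difference -0.55, SE 0.43), with the groups apart. Over the class 5 members were higher and 4 lower, with a median of 0.08.

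Widely expressed integrin subunits had differences below their standard errors by the brightest probe set. Itgav, a receptor subunit for vitronectin and latent TGF-beta, read 9.85 and 9.37 in mutants, against 9.16 and 9.60 in controls (difference 0.23, SE 0.34). Itgb1, the beta subunit shared by most matrix receptors, read 7.58 and 7.60 in mutants, against 7.57 and 7.01 in controls (difference 0.30, SE 0.37). Itgb5 read 8.35 and 8.12 in mutants, against 8.25 and 8.23 in controls by its brightest probe set. Its 3 other tested probe sets differed by 0.36 (SE 0.39), 1.10 (SE 0.49) and 1.44 (SE 0.72), so the direction for Itgb5 depends on the probe set.

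The member with the largest difference among those tested was no integrin. Itgb3bp takes its name from binding to an integrin tail and encodes a centromere protein. It read 4.85 and 4.28 in mutants, against 5.83 and 6.19 in controls, with both mutants well below both controls. The difference was -1.44 (SE 0.44, 2.72-fold, limma adjusted p = 0.768) and lay between -1.73 and -1.16 with any 1 array left out. The deposited intensities were 25.1 and 12.7 in mutants, against 60.8 and 65.1 in controls. Its 4 other probe sets were all below the tested signal, 2 of them with the opposite sign. Itgb2l, a beta subunit relative, read 4.90 and 5.80 in mutants, against 4.64 and 4.67 in controls (difference 0.70, SE 0.49), and Itgb1bp1, a regulator of the beta subunit Itgb1, differed by 0.23 (SE 0.41).

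Promoters were read as the 250 bases before each start from RefSeq's promoter table (GRCm38.p6), which held a window for 59 of the 81 members. Because beta-catenin acts through TCF and LEF factors, the letters of their core site, CTTTGA, were searched on both strands. At least 1 match lay in 14 of 65 member windows (21.5%), and in 13.8% of all 32851 windows. An AP-1 site written TGANTCA was in 3.08% of member windows and 6.75% of all, and CCAAT in 27.7% and 33.8%. Shown here are Lamb3 and Itgb3bp, the tested members with groups apart by 2-fold, and Lama2, a laminin chain gene and 1 of the 14 members that hold the TCF core. The sequences run 5′ to 3′ on the gene's strand, and capitals mark the core, here as its reverse complement.
Lamb3: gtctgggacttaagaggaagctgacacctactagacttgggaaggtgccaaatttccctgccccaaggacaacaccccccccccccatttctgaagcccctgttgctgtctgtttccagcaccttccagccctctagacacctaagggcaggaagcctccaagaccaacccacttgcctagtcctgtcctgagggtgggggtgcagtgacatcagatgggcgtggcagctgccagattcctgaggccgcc
Itgb3bp: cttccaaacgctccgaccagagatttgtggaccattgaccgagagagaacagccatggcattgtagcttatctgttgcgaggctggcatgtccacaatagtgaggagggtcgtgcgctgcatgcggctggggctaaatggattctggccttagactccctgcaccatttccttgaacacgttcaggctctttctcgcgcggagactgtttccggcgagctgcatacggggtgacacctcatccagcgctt
Lama2: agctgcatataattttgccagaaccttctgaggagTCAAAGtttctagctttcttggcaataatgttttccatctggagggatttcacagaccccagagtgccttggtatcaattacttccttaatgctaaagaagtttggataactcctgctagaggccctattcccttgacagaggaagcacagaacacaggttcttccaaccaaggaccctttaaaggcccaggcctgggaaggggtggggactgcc
The Lamb3 window is chr1:193301744-193301993 on the plus strand, the first of 2 starts in the table. Itgb3bp is chr4:99829159-99829408 and Lama2 is chr10:27616943-27617192, both on the minus strand. In the Lama2 window the match begins 215 bases before the start, and none of the searched letters occur in the windows of Lamb3 and Itgb3bp. A match describes letters only, and Lama2 itself did not separate the groups.

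Of 3 further lists of matrix genes, 0 genes passed the test, and 50.1% of all probe sets were higher in mutants. Of 16 basement membrane partners, 10 were higher and 6 lower (median 0.20). Smoc2, a matricellular protein gene also known as a crypt stem cell marker, read 6.82 and 7.62 in mutants, against 7.86 and 8.97 in controls (difference -1.19, SE 0.48, limma adjusted p = 0.785). Fn1, fibronectin, read 9.41 and 8.09 in mutants, against 7.84 and 8.01 in controls (difference 0.83, SE 0.47), and this was 0.16 without mutant 1. Nid1, the nidogen that bridges laminin and type IV collagen, differed by 0.45 (SE 0.35), and Ntn4, a netrin that binds laminin, by -0.40 (SE 0.38).

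Of 17 measured genes for collagen processing, 10 were higher and 7 lower (median 0.16). The collagen lysyl hydroxylase gene Plod2 read 4.85 and 4.29 in mutants, against 5.40 and 5.34 in controls (difference -0.80, SE 0.46), whereas the prolyl hydroxylase subunits P4ha1 and P4hb differed by 0.65 (SE 0.57) and 0.16 (SE 0.21) and the crosslinking enzyme gene Loxl1 by 0.42 (SE 0.44). Of 12 matrix proteases and inhibitors, 7 were higher and 5 lower (median 0.17). Mmp7, the Paneth cell matrilysin, differed by -0.47 (SE 0.42), the gelatinases Mmp2 and Mmp9 by -0.20 (SE 0.39) and 0.24 (SE 0.51), and the inhibitor Timp2 by 0.41 (SE 0.43).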

How the data were processed

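Transcript levels were measured on 4 arrays, 2 per group. The authors deposited linear intensities per probe set, and the submitters' processing notes name MAS5. Its scaling target and version were not given in the sources used here. Of 45101 probe sets, 64 controls were left out. Gene names came from the platform annotation, where 34945 probe sets had 1 symbol and 932 several. All 81 member symbols matched the RefSeq gene table, with 0 updated.

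Values were transformed as log2(intensity + 5), 5 being the rounded 20th percentile of all values. Because the 2% trimmed means differed by a factor of 1.53, above the limit of 10%, quantile normalization was applied. Probe sets at or above the 50th percentile of mean log2 signal were tested with limma (3.58.1, R 4.3.3), as a two-sided test without covariates, with an intensity trend and p-values adjusted by Benjamini-Hochberg over 22519 probe sets. There were 2 residual and 6.40 prior degrees of freedom. Errors given as SE are limma's. The number of arrays limits the precision, and an exact permutation test of 2 against 2 cannot go below p = 0.333. The test was also run on simulated arrays with independent normal noise. Those held no differences that affect a whole array, so the run does not cover the array differences seen here.

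The members, classes, gene lists and tests were chosen with earlier results of these data known, so they are not independent support. Values on each array were given for the 12 tested members with the smallest p, tested members apart by 2-fold, the 3 brightest members of each family, all epithelial members, the main fibrillar and type IV collagens and, without that rule, other members where the text says so or a class is described. Of each partner list, the 4 genes with the smallest p were named. Other cell type markers and Cd151, Ilk and Tln1 were named after their values were seen.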

Additional observations from a re-analysis of the deposited data

How the results depend on the processing

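Under 16 alternatives, 0 members passed the test, and 651 of 687 values of 44 named genes kept their sign. Alternatives that change only the filter or the variance model, or add a replicate block, leave every difference as it was. Their values kept their sign by construction, so the count overstates how far the signs were put to a test. Over all probe sets 0 passed, but 2 did with the values as deposited, 102 with median centring and 1 with a replicate block, and 0 to 90 with an array left out (90 without mutant 2, 20 without mutant 1). The labels give same-numbered samples no link beyond the number, and their deviations correlated at 0.034 over tested probe sets. Whether they share anything else was not tested. With 1 array left out, the lone array is assumed to vary like the other group. Members higher by 2-fold with groups apart numbered 3, and were 5 with pseudocount 1, 1 with pseudocount 16, 0 with pseudocount 32 and 5 to 9 with an array left out. The 3 such lower members became 1 with pseudocount 16, 0 with pseudocount 32, 1 with a gene's probe sets averaged and 3 to 6 with an array left out. With an array left out, the stromal median ranged from 0.050 to 0.42 and the gap between epithelial and stromal medians from -0.13 to 0.46. With probe sets averaged, the epithelial median was 0.0069 and the gap -0.054. The cause was not tested.

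Signs turned in these cases. With the values as deposited, Itga2 stood at -0.12 and Itgb5 at 0.022. With median centring, Itga6 stood at 0.094 and Itgb5 at 0.14. With pseudocount 1, Lama3 stood at -0.23. With probe sets averaged, Itgav stood at -0.012, Itgb2l at -0.019, Itgb5 at 0.72, Itgb6 at -0.0083, Lama5 at -0.27, Lamb1 at -0.11 and Mmp2 at 0.23. With _x_at and _s_at probe sets left out, Itgb5 stood at 0.36, Lama5 at -1.18 and Lamb1 at -0.51. With an array left out, the ranges were -0.52 to 0.073 for Col17a1, -0.31 to 0.61 for Col1a2, -0.43 to 0.53 for Col3a1, -0.12 to 0.11 for Itgb5, -0.25 to 1.76 for Lama4, -0.31 to 0.63 for Lamb1, -0.23 to 0.41 for Col4a2, -0.016 to 0.47 for Itgav, -1.91 to 2.56 for Lama3, -0.58 to 0.10 for Col7a1, -0.31 to 0.36 for Itga2, -0.091 to 0.91 for Lama2, -0.076 to 0.89 for Timp2, -0.43 to 0.91 for Mmp9, -0.091 to 1.39 for P4ha1, -1.09 to 0.15 for Mmp7 and -0.60 to 0.21 for Mmp2.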
